A study of Mus musculus with 32 samples.

Results

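Respiratory complex I, the NADH:ubiquinone oxidoreductase of the inner mitochondrial membrane, takes electrons from NADH in its matrix arm, passes them along iron-sulfur clusters to ubiquinone and pumps protons through its membrane arm. Most of its subunits are encoded in the nucleus by genes whose symbols start with Nduf, the core of the membrane arm is encoded in mitochondrial DNA, and dedicated assembly factors, many of them also named Nduf, build the modules without staying in the finished enzyme. MYC family proteins are known as regulators of nuclear genes for mitochondrial proteins.

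The genes described here are the protein-coding genes with a mouse symbol starting with Nduf, 46 of the 37310 genes counted. The study had already reported higher oxidative phosphorylation markers in GMYC than in GTML tumors. The paper made that comparison without an outlier GTML tumor, which had shown a signature like that of the Hedgehog group. Which tumor this was is not in the labels, and all 8 GTML tumors are used here. The Nduf genes were taken by symbol, but this set was chosen with earlier results of these data known. They comprise 36 nuclear-encoded subunits, 8 assembly factors, and Ndufa4 and Ndufa4l2, which carry the name but are known from complex IV (Ndufa4) and as its hypoxia-induced relative (Ndufa4l2). RNA was sequenced from biopsies of 6 GMYC and 8 GTML brain tumors. In GMYC mice, which are Glt1-tTA/TRE-MYC animals, a tetracycline transactivator expressed from the Glt1 promoter in hindbrain cells turns on a MYC transgene, and GTML is the corresponding model with MYCN. All animals were on the FVB/N background, the labels name no treatment, and the age and sex of the animals are not given tumor by tumor in the sources used here. Y-linked counts, which mark male animals, were high in all GMYC tumors but only in some GTML tumors, as given below. The paper gives a longer average tumor latency for GTML than for GMYC mice. The methods state that most of the GTML libraries had been generated earlier than the GMYC libraries. Which GTML libraries these were is not in the labels, so the model and the time of sequencing cannot be told apart.

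The libraries held 6218378 to 7279811 counts in GMYC and 4602294 to 6317404 counts in GTML tumors. Myc, the endogenous gene on which reads of the transgene can also be counted, was at 33.4 to 166 CPM (counts scaled to library size, corrected between tumors by TMM) in GMYC tumors and at 2.6 to 8.68 in GTML tumors, while Mycn was at 7.65 to 34.4 and 119 to 191. Among GMYC tumors, tumor 6 alone was below 134 CPM for Myc. GTML tumor 2 stood apart, with 14.1 CPM of Gli1, a target of Hedgehog signaling, against at most 3.58 in the other tumors, and 97.6 CPM of Crx, a photoreceptor transcription factor, against at least 298. It also had the most Npr3, at 176 CPM against at most 67.4 in the other tumors. The study used Npr3 as a marker of medulloblastomas outside the Hedgehog group, so these markers do not point 1 way. The medulloblastoma marker Otx2 was present in all tumors, at 237 to 378 CPM, while Eomes was at most at 3.42 CPM and had no count in 5 tumors. Small nucleolar RNAs took more than 0.3% of counts in GMYC tumors 1 to 4 and GTML tumors 1 and 2 and less in the others. The tumors above 0.3% also come first in the order of the deposited samples, and each side of this split holds both models. What that order stands for is not in the labels. Processed pseudogenes took 2.1 to 2.58% of counts in GMYC tumors and 1.01 to 2.1% in GTML tumors. The shares of small nucleolar RNAs and of processed pseudogenes are set beside the Nduf values below.

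Nduf transcripts were mostly higher in GMYC than in GTML tumors. All 46 genes passed the filter on low counts (CPM above 1 in at least 3 tumors), and 18 of them were higher in GMYC tumors at an adjusted p under 0.05 in edgeR's quasi-likelihood test (39.1%), where 9.71% of all 21024 genes tested were. None was higher in GTML tumors, where 11.5% of all genes tested were; none was at an unadjusted p under 0.05 in that direction, and DESeq2 and limma-voom also called none. At an adjusted p under 0.01 no Nduf gene was called higher in GMYC, against 2.14% of all genes tested. The median log2 fold change (GTML over GMYC, as for all fold changes here) was -0.41 over the 46 genes and 0.04 over all genes tested. A total of 42 genes had a negative and 4 a positive fold change, between -0.77 for Ndufs6 and 0.49 for Ndufa4l2.

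The groups overlapped for nearly all of these genes. Only Ndufa2, a subunit of the matrix arm, had every GMYC tumor (36 to 46.4 CPM) above every GTML tumor (21.6 to 35.8 CPM), which is 1 of 46 genes where 2.48% of all genes tested were separated in this way. Together the 46 genes took 0.235 to 0.301% of counts in GMYC tumors (mean 0.264% ± 0.0223, SD, n = 6) and 0.157 to 0.245% in GTML tumors (mean 0.206% ± 0.0333, SD, n = 8). GTML tumors 1, 2 and 4, at 0.245%, 0.238% and 0.238%, were above GMYC tumor 2, and GTML tumors 5, 6 and 7, at 0.179%, 0.157% and 0.174%, were the lowest of all 14.

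**Figure D1:**
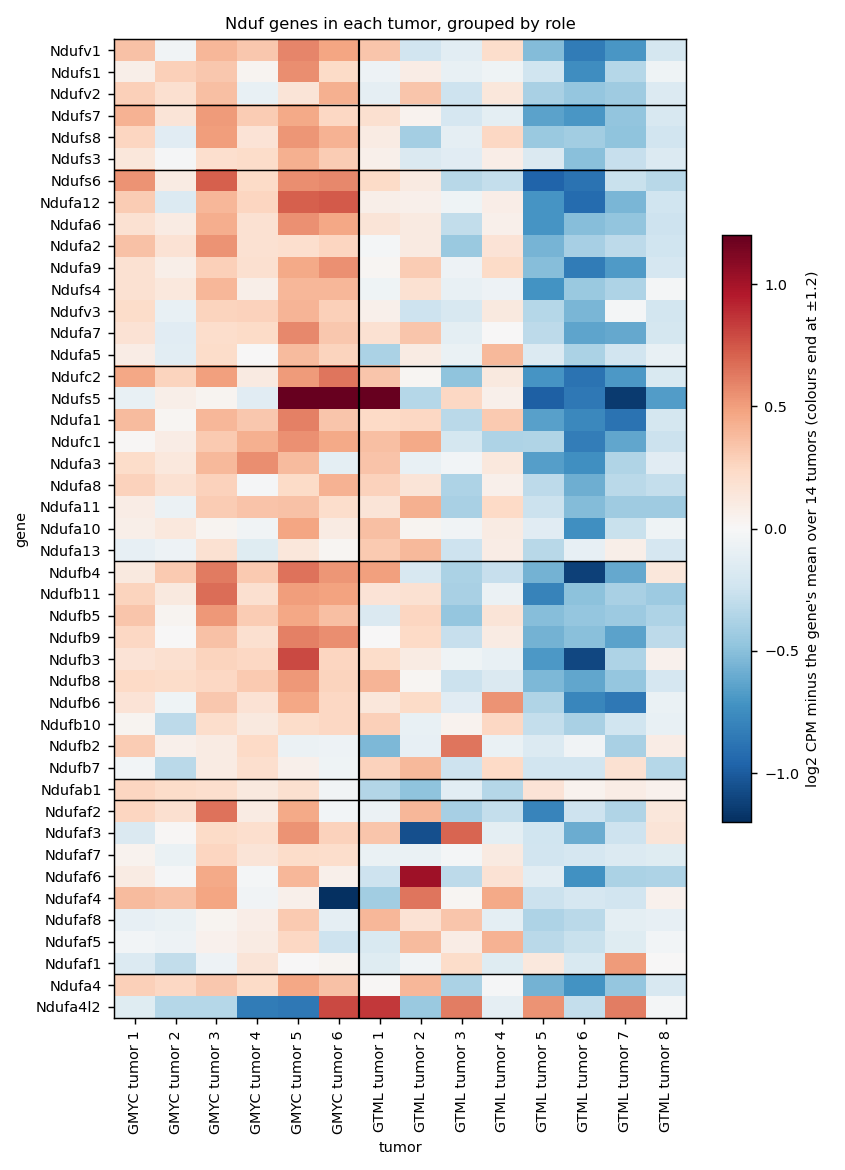
Each row is an Nduf gene (45 are drawn), grouped by role from the N module core at the top to Ndufa4 and Ndufa4l2 at the bottom, each column is a tumor, and the colour gives log2 CPM minus the gene's mean over the 14 tumors. Over all 46 genes, GMYC tumor 5 had the highest value for 16, and GTML tumors 6 and 5 had the lowest for 23 and 11.

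The same tumors set the range for many of the genes. GMYC tumor 5 was the highest of the 14 tumors for 16 genes and GMYC tumor 3 for 8, whereas GTML tumor 6 was the lowest for 23 and GTML tumor 5 for 11. In GMYC tumor 3, 43 of the 46 genes were above their mean over all tumors, compared with 1 in GTML tumor 6. GMYC tumor 2 had 23 genes above their mean, fewer than GTML tumors 1, 2 and 4, which had 28, 28 and 27. In these bulk samples fewer cells of a type and less RNA per cell cannot be told apart.

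The 7 core subunits of the matrix arm are those that bind the flavin and the iron-sulfur clusters or shape the ubiquinone site. In the N module, which oxidizes NADH, 2 of 3 genes were called higher in GMYC (median log2 fold change -0.43). Ndufs1, the subunit with several of the iron-sulfur clusters, was at 195, 229 and 282 CPM (lowest, median and highest) in GMYC tumors and at 113, 182 and 204 CPM in GTML tumors. Its groups overlapped, through GMYC tumors 4 and 1 at the low end of their group and GTML tumor 2 at the high end of its own. The log2 fold change of Ndufs1 was -0.43 ± 0.123 (SE; edgeR adjusted p = 0.0247). Ndufv1, which holds the flavin that accepts electrons from NADH, fell by 0.57 on the log2 scale (adjusted p = 0.0284), and its iron-sulfur partner Ndufv2 was at -0.37 (adjusted p = 0.063).

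In the Q module, which hands the electrons to ubiquinone, 3 of 4 genes were called higher in GMYC (median -0.44). Ndufs7, which carries the last iron-sulfur cluster before ubiquinone, had the smallest p of all Nduf genes. It was at 60.1, 69.6 and 77.1 CPM in GMYC tumors and at 33.2, 47.2 and 61.7 CPM in GTML tumors, and only GTML tumor 1 reached into the range of the GMYC tumors. This gave a log2 fold change of -0.59 ± 0.145 for Ndufs7 (SE; edgeR adjusted p = 0.0134). Ndufs8 fell by 0.5 and Ndufs3 by 0.37 on the log2 scale.

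Accessory subunits of the matrix arm surround this core and stabilize it, and 6 of 9 were called higher in GMYC (median -0.46). Ndufs6, a zinc-binding subunit added late in assembly, showed the largest fold change of all 46 genes. It was at 24.6, 33.6 and 37.8 CPM in GMYC tumors and at 11.6, 18.4 and 26.8 CPM in GTML tumors, with GTML tumors 1 and 2 reaching above GMYC tumor 2. The log2 fold change of Ndufs6 was -0.77 ± 0.199 (SE; edgeR adjusted p = 0.0156). Ndufa6, Ndufa2, Ndufs4 and Ndufv3 fell by 0.54, 0.48, 0.44 and 0.4 on the log2 scale, whereas Ndufa9, Ndufa7 and Ndufa5 did not pass, at -0.46, -0.38 and -0.23.

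Ndufa12 and Ndufaf2 are related proteins, of which the assembly factor Ndufaf2 occupies the place that the subunit Ndufa12 takes in the finished enzyme. Ndufa12 was at 22.2, 31.9 and 41.7 CPM in GMYC tumors and at 13, 22.6 and 26.4 CPM in GTML tumors. GMYC tumors 5 and 6 were the highest and GMYC tumor 2 lay among the GTML tumors. For Ndufa12 the log2 fold change was -0.65 ± 0.203 (SE; edgeR adjusted p = 0.034), a call lost in 14 of 30 other settings. Ndufaf2 was at 13.4, 16.1 and 21.7 CPM in GMYC tumors and at 7.76, 11.3 and 18.2 CPM in GTML tumors, overlapping through GTML tumors 2 and 8, and its log2 fold change of -0.46 ± 0.207 did not pass (edgeR adjusted p = 0.117). A difference between the fold changes of Ndufa12 and Ndufaf2 was not tested.

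**Figure D2:**
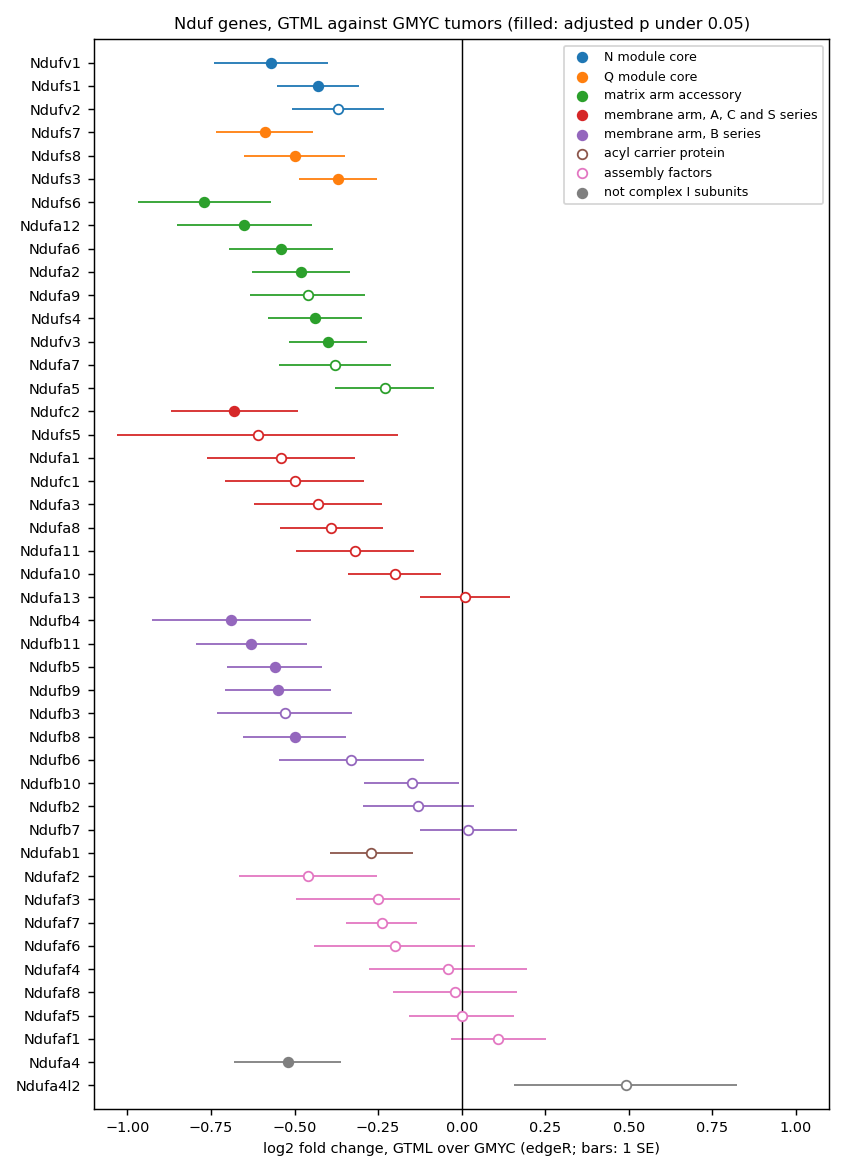
Each point is the log2 fold change of an Nduf gene (45 are drawn) in GTML over GMYC tumors with a bar of 1 SE, colours give the role, and filled points passed an adjusted p under 0.05. The 18 filled points all lie left of 0, and none of the 8 assembly factors is filled.

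The accessory subunits of the membrane arm gave a mixed picture. In the B series, which lies mostly in the distal part of that arm, 5 of 10 genes were called higher in GMYC (median -0.52). Ndufb5 was at 69, 85.8 and 97 CPM in GMYC and at 47.2, 51 and 81.2 CPM in GTML tumors, where tumors 2 and 4 were high and the others were at or below 60.1. For Ndufb5 the log2 fold change was -0.56 ± 0.143 (SE; edgeR adjusted p = 0.0149). Ndufb11, encoded on the X chromosome, was at 42.9, 51.4 and 62.7 CPM in GMYC and at 22.4, 30 and 44.6 CPM in GTML tumors. The overlap of Ndufb11 came from GTML tumors 1 and 2, and its log2 fold change was -0.63 ± 0.166 (SE; edgeR adjusted p = 0.0165). Ndufb4, Ndufb9 and Ndufb8 fell by 0.69, 0.55 and 0.5 on the log2 scale. Ndufb7 was at 44.6, 56.2 and 64 CPM in GMYC and at 43.9, 55.2 and 72.7 CPM in GTML tumors, ranges that overlapped almost fully, and its log2 fold change was 0.02 ± 0.144 (edgeR adjusted p = 0.915).

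Of the 9 accessory subunits of the A, C and S series in the membrane arm, 1 was called, although 8 had a negative fold change and their median was -0.43. This was Ndufc2, at 48.5, 62.6 and 70.3 CPM in GMYC and at 24.1, 35.9 and 56.4 CPM in GTML tumors. GTML tumors 1 and 4 reached above the lowest GMYC tumor, and GTML tumors 5, 6 and 7 were all below 28 CPM. For Ndufc2 the log2 fold change was -0.68 ± 0.19 (SE; edgeR adjusted p = 0.0222). Ndufa13 was at 0.01 (adjusted p = 0.975). Ndufab1, the mitochondrial acyl carrier protein that is also part of complex I, was at -0.27 (adjusted p = 0.131).

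None of the 8 assembly factors named Nduf was called in either direction, and their median log2 fold change was -0.12, with 2 at an unadjusted p under 0.05. The fold changes ran from -0.46 for Ndufaf2 to 0.11 for Ndufaf1, a member of the complex that builds the membrane arm. Ndufaf1 was at 27.2, 32.9 and 37.3 CPM in GMYC and at 29.5, 33.1 and 47.9 CPM in GTML tumors, groups that overlapped apart from GTML tumors 7 and 3 at the high end and GMYC tumor 2 at the low end (0.11 ± 0.142, SE; edgeR adjusted p = 0.595). Ndufaf7, a methyltransferase that acts on a core subunit, was at -0.24 (adjusted p = 0.115) and Ndufaf5, which hydroxylates Ndufs7, at 0 (adjusted p = 1).

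Some genes varied within a model more than between models, and these were picked after their values had been seen. Ndufaf4, an assembly factor of the Q module, was at 62.7 to 90 CPM in GMYC tumors 1 to 5 and at 26.7 CPM in GMYC tumor 6, the tumor with the lowest Myc level of its model. In GTML tumors, with Myc at 2.6 to 8.68 CPM and Mycn at 119 to 191 CPM, Ndufaf4 was at 48.3 to 101 CPM. A relation of Ndufaf4 to either gene was not tested. Ndufaf6, a further assembly factor, reached 50.3 CPM in GTML tumor 2, against 14.7 to 33.7 CPM in the other tumors. Ndufs5, a membrane arm subunit, reached 15.3 CPM in GMYC tumors 5 and 6 and 16.2 CPM in GTML tumor 1, whereas the other 11 tumors lay between 2.64 and 7.49 CPM, so both models held high and low tumors (log2 fold change -0.61 ± 0.42, SE; edgeR adjusted p = 0.295).

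**Figure D3:**
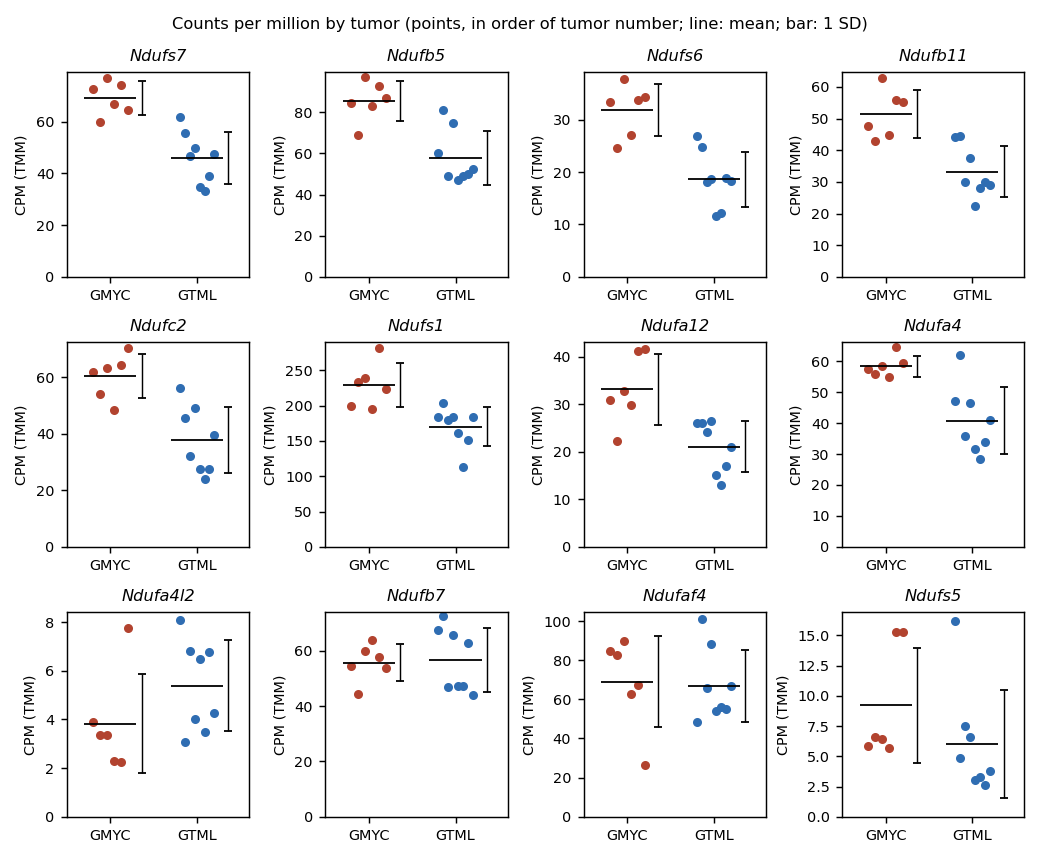
Each panel gives the CPM of 1 gene in the GMYC and GTML tumors (points, in order of tumor number), with the mean as a line and 1 SD as a bar. Ndufs7, Ndufs6 and Ndufc2 show partly overlapping groups, Ndufb7 shows groups that overlap over most of their range, and Ndufs5 shows 3 high tumors across both models.

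The pair of genes known from outside complex I had fold changes of opposite sign, and only that of Ndufa4 passed. Ndufa4 was at 54.9, 57.9 and 64.5 CPM in GMYC and at 28.3, 38.4 and 62 CPM in GTML tumors. GMYC tumors lay close together, and the overlap came from GTML tumor 2 alone, since the next GTML tumor was at 47.3 CPM. The log2 fold change of Ndufa4 was -0.52 ± 0.16 (SE; edgeR adjusted p = 0.0329), a call lost in 12 of 30 other settings. Ndufa4l2 had the lowest level per transcript length of the 46 genes, with a mean of 13.4 TPM (counts scaled by transcript length and library). It was at 2.25, 3.37 and 7.78 CPM in GMYC and at 3.09, 5.37 and 8.11 CPM in GTML tumors, from 14 to 55 counts per tumor. The highest GMYC value of Ndufa4l2 was that of tumor 6, and the groups overlapped over most of their range (0.49 ± 0.333, SE; edgeR adjusted p = 0.29). Ndufa4l2 is also known from pericytes. The 8 endothelial and pericyte markers summed to 100 to 430 CPM in GMYC and 214 to 576 CPM in GTML tumors. Of these 8 markers 1 was called, higher in GTML, as were 11.5% of all genes tested. The part of those cells in the Ndufa4l2 level was not tested.

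Sequences around the transcription start were searched because the models differ in a MYC family gene and because many of the genes moved together. RefSeq promoters (GRCm38.p6, 250 bases before to 50 bases after each annotated start, both strands searched) were found for 40 of the 46 genes; Ndufa2, Ndufa4l2, Ndufaf6, Ndufb9 and Ndufs1 are among those without one. The letters CACGTG, the E-box bound by MYC and MAX, which read the same on both strands, were in 2 of the 40 (5%) and in 8.09% of the 27025 genes with a promoter. They lay before the start of Ndufv1, which was called, outside any annotated gene, and of Ndufa7, which was not, where they fall in an exon of the neighbouring gene Rps28 on the other strand.
Ndufv1, chr19:4012907-4012936, minus strand: agcagagggcgaCACGTGagcctggtttac
Ndufa7, chr17:33824488-33824517, plus strand: gcggagaggagtCACGTGagcaggggatgc

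The letters AAGATGGC, read by YY1, were held by 8 of the 40 genes (20%) and by 3.19% of all genes with a promoter. Of the 8 genes, 4 were among the 15 called genes with a promoter and 4 among the 25 not called. All 8 matches lay after the start, with their first base 11 to 39 bases into the transcript. In the 4 called genes the letters span the junction of the 5′ untranslated region and the coding sequence in the first coding exon and include the annotated start codon. The 27025 genes with a promoter were not limited to those with a start codon so close to the start, so 20% and 3.19% come from unlike sets. The stretches of the 4 called genes are shown here with the match in capitals.
Ndufs7, chr10:80249462-80249491, plus strand: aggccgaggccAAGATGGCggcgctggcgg
Ndufs6, chr13:73328433-73328462, minus strand: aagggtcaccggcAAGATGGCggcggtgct
Ndufb8, chr19:44555393-44555422, minus strand: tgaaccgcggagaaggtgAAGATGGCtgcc
Ndufs4, chr13:114388045-114388074, minus strand: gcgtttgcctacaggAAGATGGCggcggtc

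For the other letters searched, the core of the NRF1 site (GCATGCGC, whose matches on opposite strands can overlap) was in 12.5% of the Nduf promoters and 3.05% of all genes. It was held by 1 of the 15 called genes with a promoter and by 4 of the 25 not called. The ETS site bound by GABP (CCGGAAG) was in 15% and 9.93%, and the site of estrogen-related receptors (AAGGTCA) in 7.5% and 5.38%. A match is a stretch of letters, and whether the factors bind there was not measured.

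The membrane arm core encoded in mitochondrial DNA gave no single direction. The 7 mt-Nd genes had a median log2 fold change of 0.1, with 5 positive and 2 negative values, and 1 was called. The median was -0.38 among the tumors richer in small nucleolar RNA and -0.47 with a term for the processed pseudogene share, so its direction depended on the libraries compared. mt-Nd3 was at 37.1, 49 and 55 CPM in GMYC and at 26.5, 36.3 and 43 CPM in GTML tumors, with 4 GTML tumors above the lowest GMYC tumor (-0.44 ± 0.139, SE; edgeR adjusted p = 0.0347), and this call was lost in 19 of 30 other settings. mt-Nd1 was at 0.24 (adjusted p = 0.1), mt-Nd5 at 0.17, mt-Nd6 at 0.12, mt-Nd2 at 0.1, mt-Nd4 at 0.04 and mt-Nd4l at -0.01, none of which passed. A limit on these values is that no protein-coding gene of at least 500 exon bases had more than 1.27 counts per base in any tumor. mt-Nd5 reached that value, and mt-Nd1 lay between 0.904 and 1.14 counts per base in all tumors. Nduf genes reached at most 0.884 counts per base (Ndufb9), and this ceiling limits how far differences of genes near it can be read.

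GTML tumors 5, 6 and 7 had the lowest shares of counts on nuclear-encoded subunits, 0.154%, 0.134% and 0.148%, and the highest shares on mt-Nd genes, 0.112%, 0.116% and 0.109%. These are also the smallest libraries (4602294, 5047607 and 5448620 counts). There mt-Nd1, near the ceiling, had 977 to 1051 counts, against 980 to 1068 counts in GMYC tumors. Not all mt-Nd genes were near it, as mt-Nd4l reached at most 0.495 counts per base. It had 87, 132 and 114 counts in GTML tumors 5, 6 and 7 and 106 to 147 in GMYC tumors. How far library size and the ceiling set these mt-Nd shares was not tested. GTML tumors 1 and 2 had the lowest mt-Nd shares, 0.0702% and 0.061%. In GMYC tumors the mt-Nd share was between 0.0759% and 0.0957%, and GMYC tumor 5 had both the highest subunit share (0.266%) and the highest mt-Nd share.

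**Figure D4:**
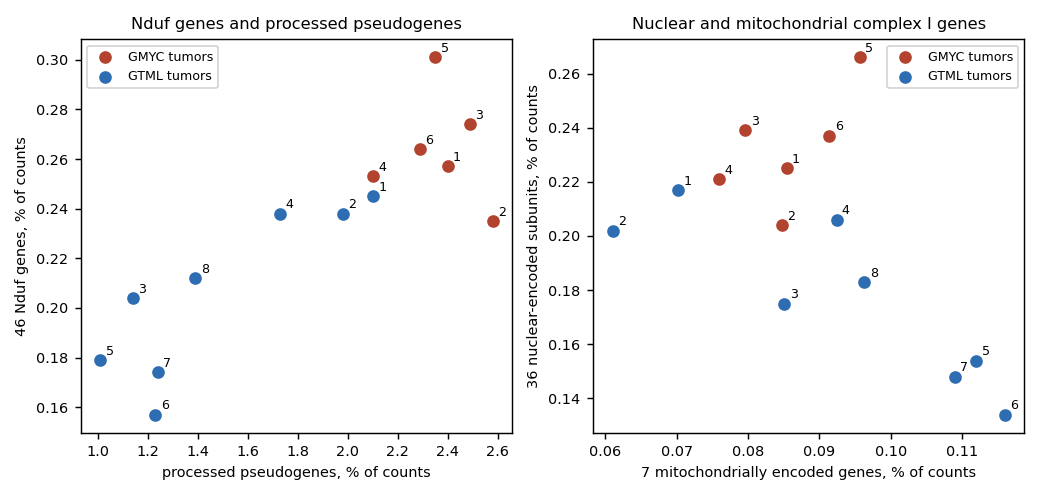
Left, the percent of counts on the 46 Nduf genes against the percent on processed pseudogenes, and right, the percent on the 36 nuclear-encoded subunits against the percent on the 7 mitochondrially encoded genes; points are tumors, numbered within their model. GTML tumors 1, 2 and 4 lie nearest the GMYC tumors on the left. GTML tumors 5, 6 and 7 are lowest in subunits and highest in mitochondrially encoded genes on the right. They are also the smallest libraries, and the part of library size in these shares was not tested.

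Other genes of the respiratory chain were set beside the Nduf genes. Of the 38 nuclear-encoded subunits of complexes II to V, 29 were called higher in GMYC (76.3%, against 9.71% of all genes tested). None was called higher in GTML, and the median log2 fold change was -0.5. At an adjusted p under 0.01, 10 of these subunits were called, against no Nduf gene. For 12 of them every GMYC tumor was above every GTML tumor, against 1 Nduf gene and 2.48% of all genes tested. Sdhd, a membrane anchor of complex II, and the complex III subunits Uqcrfs1 and Uqcrc2 had the smallest p in this list, at -0.8, -0.91 and -0.6 (edgeR adjusted p = 0.00276, 0.00371 and 0.00401). Of 12 complex I assembly factors with other names, 3 were called higher in GMYC (25%, median -0.33), namely Tmem70 at -0.76, Ecsit at -0.48 and Timmdc1 at -0.39. Of 15 regulators of mitochondrial gene expression, 1 was called higher in GMYC (6.67%, no larger a share than over all genes tested, median -0.07). This was Gabpa, the DNA-binding subunit of GABP, at -0.35 (edgeR adjusted p = 0.0188), while the mitochondrial DNA polymerase Polg was at 0.23 and the receptor Esrra at -0.42, and neither passed.

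Processed pseudogenes of Nduf genes can share reads with their parents, and how reads matching several places were counted is not given in the sources used here. The 4 pseudogenes counted had a median log2 fold change of -1.31, against -0.61 over the 1999 processed pseudogenes tested. Ndufs6b, a pseudogene of Ndufs6, was at 4.1, 6.78 and 11.3 CPM in GMYC and at 0.431, 1.69 and 6.7 CPM in GTML tumors (-1.55 ± 0.45, SE; edgeR adjusted p = 0.0255). The groups overlapped through GTML tumors 1 and 2, as for Ndufs6. Its counts were 11.9 to 33% of those of Ndufs6 in GMYC tumors and 3.7 to 25% in GTML tumors, so that the fold change of Ndufs6 is uncertain by the reads that the pair may share.

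The Nduf level moved with the share of processed pseudogenes among GTML tumors, and no such relation was seen among GMYC tumors. Within GTML tumors, the median log2 deviation of the Nduf genes rose with that share (Pearson's r = 0.848, exact permutation p = 0.0124, adjusted over 2 models 0.0247; Spearman's rho = 0.738, exact permutation p = 0.0458, which did not pass after adjustment, at 0.0917; n = 8). Without GTML tumors 1 and 2, which lay farthest from the median share, r was 0.698 over 6 tumors. Within GMYC tumors, whose shares spanned a narrow range, r was -0.22 (exact permutation p = 0.703, n = 6) and rho was -0.232 (exact permutation p = 0.672). With the processed pseudogene share as a term in the edgeR fit, a setting chosen after the data had been seen, no Nduf gene was called and their median log2 fold change was 0.02, and 0.0761% of all genes were still called higher in GMYC. Only GTML tumor 1, at 2.1%, came up to the lowest GMYC tumor, so the model and this share can hardly be told apart in these libraries.

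The count of called genes also depended on which libraries were compared. Among the 4 GMYC and 2 GTML tumors richer in small nucleolar RNA the median log2 fold change of the Nduf genes was -0.08 and none was called in either direction, where 2 of all genes were called. Among the 2 GMYC and 6 GTML tumors poorer in it it was -0.57, and 15 Nduf genes were called higher in GMYC, against 6.69% of all genes tested. With a term for this split 7 were called (median -0.37), against 6.77% of all genes. A term was also fitted for Y-linked counts, which numbered 2115 to 3378 in GMYC tumors, 1102 to 2220 in GTML tumors 1, 4, 6 and 7 and 4 to 16 in the other GTML tumors. All tumors on the low side of this term were GTML tumors, so the term and the model can only partly be told apart. With this term 1 Nduf gene was called (median -0.41), no larger a share than the 3.62% of all genes called higher in GMYC. A total of 26 were called without GTML tumor 2 (median -0.46, and 15.1% of all genes), 6 without GMYC tumor 3 or without GMYC tumor 5 (5.65% and 6.43% of all genes), 11 without GMYC tumor 6 (7.96%) and 8 without GTML tumor 5 (6.58%). With the trend of each tumor with transcript length removed, 8 were called, against 10.1% of all genes, and the median was -0.24. The Nduf transcripts are short, with a median of 977 bases against 2992 bases over the protein-coding genes tested.

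Apart from red blood cells, each list of markers of other cell types held at most 1 called gene. Over all genes tested, 9.71% were called higher in GMYC and 11.5% higher in GTML, so such short lists say little by their calls. Of 6 erythroid genes, 4 were called higher in GMYC, among them Hba-a1 (9.17 to 35.2 CPM in GMYC, 1.29 to 9.11 in GTML), whereas Alas2 was at 18.7 to 63.2 and 28.5 to 122 CPM, and the summed list was at 53.9 to 178 and 42 to 136 CPM. Of 8 astrocyte markers none was called, but all 8 had a negative fold change (median -0.79, with 2 at an unadjusted p under 0.05), and their sums were 809 to 1440 CPM in GMYC and 546 to 986 in GTML tumors. Oligodendrocyte markers (1 of 7 called, higher in GTML) summed to 155 to 355 and 159 to 372 CPM, and markers of cerebellar neurons (1 of 7 tested called, higher in GMYC) to 179 to 421 and 157 to 368 CPM. Microglia and macrophage markers (1 of 8 called, higher in GMYC) summed to 183 to 289 and 96.6 to 367 CPM. The granule neuron genes Gabra6 and Cbln3 reached 40 and 62.6 CPM in GMYC tumors, against at most 0.705 and 2.12 in GTML tumors, whereas 3 of the 7 neuronal genes tested had a positive fold change, among them Rbfox3, at 11.1 to 34.5 CPM in GMYC and 18.8 to 57.7 CPM in GTML tumors. The part of these cells in the Nduf levels was not tested.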

How the data were processed

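RNA from fresh-frozen biopsies of 6 GMYC and 8 GTML tumors had been sequenced on an Ion Proton instrument. The authors aligned reads to mm9 with STAR and Bowtie, counted them per gene with featureCounts and deposited whole-number counts without normalization. The paper and the submitters' notes give different aligner versions. The handling of duplicates, strand and multiply mapped reads is not given in the sources used here. A further 18 columns, whose names match no label, were not used.

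Counts of 37310 genes were analysed with edgeR 4.0.16 in R 4.3.3 (genes with CPM above 1 in at least 3 tumors, TMM, quasi-likelihood test, Benjamini-Hochberg adjustment over all 21024 genes tested, threshold 0.05 with 0.01 beside it). SE is the log2 fold change divided by the square root of F. Symbols, types and principal transcript lengths came from GENCODE M21 (GRCm38), matched by Ensembl identifier for 32620 genes (87.4%). TPM used those lengths, and the lengths of Ndufab1, Ndufb2 and Ndufaf4 are uncertain because their coding transcripts differ widely. Promoter positions are GRCm38.p6 and were not joined to mm9 positions. Values were named for the 5 Nduf genes with the smallest p higher in GMYC, the 3 higher in GTML, the one with the lowest mean TPM, Ndufs1, and the pairs Ndufa4 and Ndufa4l2, Ndufs6 and Ndufs6b, and Ndufa12 and Ndufaf2, with up to 3 genes of other lists. Further Nduf genes and the marker genes given one by one were picked after their values had been seen. The values of 1 Nduf gene are not reported here, though counts and medians over the Nduf genes include it. Members and gene lists were chosen with earlier results of these data known. The Nduf level of a tumor is the median over genes of log2 CPM (prior count 2) minus the gene's mean.

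Alternatives were DESeq2 1.42.0, limma-voom (limma 3.58.1, the study's tool), other normalizations and filters, protein-coding genes alone, the replicate number as a block, each tumor left out, the length trend, thinning, and terms for small nucleolar RNA, Y-linked counts and, added after the data had been seen, processed pseudogenes and tumors 1 to 6 without the block. Code was tested on simulated data. The study speaks of individual tumors, and whether each came from its own animal is not given in the sources used here, so p-values measure the spread between these samples. Every pair of tumors in a model differed beyond counting error (chi-square per degree of freedom at least 5.7).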

Additional observations from a re-analysis of the deposited data

Results flagged for a closer look

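In 110 sets of 6 or 8 tumors looked at for a single tumor far from the rest of its model, 7 had one, and chance gives about 1 in 20. Among GMYC tumors, tumor 5 was the highest by far for Ndufa10 (190.0 CPM), Ndufb3 (48.1 CPM) and Ndufb8 (65.3 CPM), all of them complex I subunits. GMYC tumor 6 was far above the other GMYC tumors for Ndufa4l2 (7.78 CPM). In GTML tumors, tumor 2 was far above the rest for Ndufaf6 (50.3 CPM), tumor 1 for Ndufs5 (16.2 CPM) and tumor 3 for Ndufb2 (64.7 CPM). The reason for these values was not tested.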

How the results depend on the processing

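The count of 18 Nduf genes called higher in GMYC stayed between 15 and 23 with DESeq2, limma-voom, other size factors, other filters, protein-coding genes alone and thinned counts. Over these settings 4.96% to 12.1% of all genes were called higher in GMYC. The count was 8 with the length trend removed, 7 with the small nucleolar RNA term and 1 with the Y-linked term. There 10.1%, 6.77% and 3.62% of all genes were called higher in GMYC. The count was 0 in the tumors richer in small nucleolar RNA, 0 with the processed pseudogene term and 0 at an adjusted p under 0.01. There 0.0106%, 0.0761% and 2.14% of all genes were called higher in GMYC. Leaving out each tumor in turn gave 6 to 26 Nduf genes, where 5.65% to 15.1% of all genes were called higher in GMYC. No Nduf gene was called higher in GTML under any of these. The median log2 fold change of the Nduf genes stayed within -0.36 to -0.46 when a tumor was left out, and moved to -0.08 in the tumors richer in small nucleolar RNA and to 0.02 with the processed pseudogene term, where the median of the mt-Nd genes was -0.38 and -0.47. The cause of these changes was not tested.

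With the replicate number as a block, over tumors 1 to 6, no Nduf gene was called (median -0.42), where 0.437% of all genes were called higher in GMYC. Without the block the same tumors gave 3 Nduf genes, where 5.11% of all genes were called higher in GMYC. The numbers do not pair the tumors, since deviations of same-numbered tumors correlated between -0.212 and 0.24.

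Of 30 settings, the call held in 26 for Ndufs7 and Ndufb5, 25 for Ndufs6 and Ndufb11, and 23 for Ndufc2 and Ndufs1. Signs changed mostly for genes that had not passed. mt-Nd4l was at 0.01 with DESeq2 and with its size factors, 0.03 with the stricter filter, 0.39 without the length trend, 0.02 with thinned counts, 0.16 with the Y-linked term and 0.16 in the tumors poorer in small nucleolar RNA, where Ndufb7 was at -0.1. With the block, mt-Nd2 was at 0, mt-Nd4 at -0.01 and mt-Nd6 at -0.03. With the small nucleolar RNA term, mt-Nd2, mt-Nd4, mt-Nd5 and mt-Nd6 were at -0.12, -0.12, -0.1 and -0.2, and in the tumors richer in it they were at -0.38, -0.3, -0.38 and -0.47. With the processed pseudogene term, Ndufc2, Ndufa4 and Ndufs6b, which had passed, were at 0.08, 0.08 and 0.03, Ndufaf1 at -0.24, Ndufaf2 at 0.11, mt-Nd1 at -0.07, mt-Nd2 at -0.47, mt-Nd4 at -0.37, mt-Nd5 at -0.59 and mt-Nd6 at -0.73. With a tumor left out, mt-Nd4l ranged from -0.11 to 0.08, Ndufb7 from -0.04 to 0.07 and mt-Nd4 from -0.02 to 0.1.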
